A study of Homo sapiens with 9 samples.

Results

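This is an account of the RNA that wild-type MDA-MB-231-D3H2LN cells contained at baseline. MDA-MB-231 is a human triple-negative breast cancer line, and D3H2LN is a metastatic subline of it. The 3 libraries labelled wild type, of 9 libraries in the series, were taken by their label, and all 56505 gene symbols counted in them were ranked by level. These cells express JAG1, the Notch ligand whose loss the series was designed to study, and they served as its control. The other 6 libraries, from clones in which JAG1 had been knocked out, are not analysed here. Culture was in DMEM rich in glucose, with 10% serum (FBS), and no treatment was applied. One cell line in one culture condition was sampled, and nothing in the labels says that the 3 replicates were separate cultures, so the spread between them may be technical.

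The libraries held 20159548, 22334156 and 20058253 counted reads in replicates 1, 2 and 3. A level is given as CPM, the count scaled to a library total of 1000000 counted reads, which says how much of the library a gene took up. To compare genes with one another, CPM was divided by the length of the gene's merged exons in kilobases. A single read was worth 0.0496, 0.0448 and 0.0499 CPM in the 3 libraries. A gene counted as expressed at 1 CPM or more in each library, abundant at 100 CPM or more in each, and not detected at 3 counts or fewer over the 3 libraries together, which is 0.048 CPM. Genes between not detected and expressed are given as trace. Shares and floors cover counting error only, because the reads carry no molecular identifiers. In bulk RNA a gene expressed in few cells and a gene weakly expressed in all cells cannot be told apart.

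Breast epithelium has a luminal layer, which carries the hormone receptors and keratins 8, 18 and 19, and a basal layer, which carries keratins 5 and 14, contractile proteins and TP63. Carcinoma cells that have undergone an epithelial to mesenchymal transition lose the adhesion protein E-cadherin and gain vimentin, fibronectin and a motile shape. The receptors a cell carries set which signals it can receive, and the collagens, laminins and fibronectin it secretes form the matrix to which its integrins bind.

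Of the 56505 genes, 13530 were expressed and 33064 were not detected, 28538 of them with no count in any library. Among 18962 nuclear protein-coding genes, 11933 were expressed, 1857 of these were abundant, 2908 were trace and 4121 were not detected. The expressed genes made up 62.9% and the undetected ones 21.7%. These are the shares against which the counts of each protein-coding gene list below are to be read, also where they are not repeated. Protein-coding genes took up 97.0% ± 0.251 (SD, n = 3) of the counted reads and lincRNAs 0.228% ± 0.0240. The counts were spread over many genes: 981 genes together held 50% of them. A zero can also come from the counting. Reads in exonic bases that 2 genes share went largely uncounted, on either strand. Of 1731 genes of any type with 99% or more of their exonic bases shared, 96.7% had no count. Of 71 protein-coding genes covered in this way by same-strand exons, 83.1% had none. All 16 protein-coding genes covered in this way by opposite-strand exons alone had none. Of 11057 protein-coding genes that shared no exonic base, 22.8% had no count. For that reason a gene is named below as shared where 50% or more of its exonic bases overlap another gene.

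The most abundant RNA by reads was EEF1A1, which encodes the elongation factor that brings aminoacyl-tRNA to the ribosome, at 14800, 12624 and 14204 CPM in replicates 1, 2 and 3 (13876 ± 1125, mean ± SD, n = 3). It took up 1.39% ± 0.112 of all counted reads. EEF1A1 has many near-identical processed pseudogenes, so its exact level is uncertain. The mitochondrial oxidase subunit MT-CO1 followed by mean level, then the cytoskeletal actin ACTB at 4310.3, 4498 and 5131 CPM, the ribosomal stalk protein gene RPLP0 at 5220.3, 4057 and 4356 CPM and the second actin, ACTG1, at 4116, 4056 and 4473 CPM. The chaperone HSP90AA1 stood at 3355, 2972 and 4993 CPM. Among these nuclear genes the widest range between libraries was 1.68-fold, for HSP90AA1. The 25 genes with most reads held 8.79% ± 0.320 of the counts and included 5 mitochondrially encoded genes, 6 ribosomal protein genes, 5 of the translation and chaperone list, 4 glycolytic genes, 2 actins and a single matrix gene, THBS1.

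**Figure D1:**
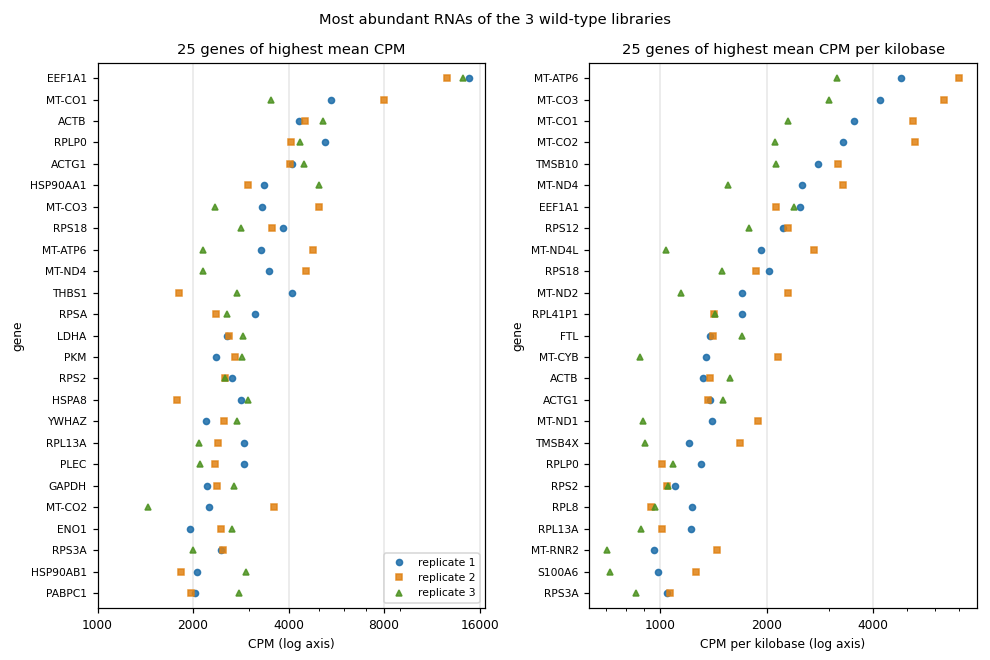
Levels of the 25 genes with the highest mean CPM (left) and of the 25 with the highest mean CPM per kilobase (right), on log axes, with 1 point per wild-type replicate. The mitochondrially encoded MT- genes run from replicate 3 (lowest) to replicate 2 (highest), and EEF1A1 lies apart from all other genes on the left.

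Per kilobase the order changed, and 13 of the 25 leading genes were the same. Mitochondrially encoded RNAs led and made up 10 of the 25, with MT-ATP6 at 4985 ± 1931 CPM per kilobase, MT-CO3 at 4512 ± 1695 and MT-CO1 at 3666 ± 1443. Among nuclear genes the small actin-sequestering peptide TMSB10 led at 2702 ± 539 CPM per kilobase. Then came EEF1A1 at 2333 ± 189, RPS12 at 2102 ± 285, RPS18 at 1796 ± 272 and the ferritin light chain FTL, which stores iron, at 1497 ± 175. The short pseudogene RPL41P1 also entered the leading 25, at 1517 ± 160.5 CPM per kilobase, and its reads may come from its parent gene. S100A6, a calcium-binding protein, reached 987 ± 270.4 CPM per kilobase. This order depends on the length used, here that of the merged exons. Per kilobase of the median GENCODE transcript, EEF1A1 stood at 7700 and ACTB at 6498, above MT-ATP6 at 4985 and TMSB10 at 2702. Of the 25 leading genes by merged exons, 13 were also among the 25 by that length.

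Genes of the translation machinery were expressed as a block. Of 85 ribosomal protein genes, 83 were expressed and 75 were abundant, and together they took up 9.42%, 8.57% and 7.95% of the counts in replicates 1, 2 and 3 (95% Wilson intervals 9.41% to 9.44%, 8.55% to 8.58% and 7.94% to 7.96%). Vertebrate ribosomal protein and elongation factor mRNAs are known for a 5′ terminal run of pyrimidines that begins with C, through which growth signalling controls their translation. RefSeq start sites (GRCh38.p14) of the leading members are shown because they carry this run. Each line has the 30 bases before the start and the first 15 transcribed bases, 5′ to 3′ on the gene's strand, with capitals for the unbroken pyrimidine run at the start. GAPDH and TMSB10 stand beside them as abundant genes without it. 
EEF1A1: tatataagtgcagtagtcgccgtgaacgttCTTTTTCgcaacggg
RPLP0: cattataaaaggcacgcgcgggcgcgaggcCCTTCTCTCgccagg
RPSA: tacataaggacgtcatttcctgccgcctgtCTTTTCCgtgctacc
RPS12: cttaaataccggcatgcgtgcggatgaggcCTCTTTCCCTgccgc
RPS18: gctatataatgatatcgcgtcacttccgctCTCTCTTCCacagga
GAPDH: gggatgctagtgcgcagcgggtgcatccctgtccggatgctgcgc
TMSB10: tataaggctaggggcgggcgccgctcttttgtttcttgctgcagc
These lie at chr6:73521018-73521062 (minus strand), chr12:120201097-120201141 (minus), chr3:39406690-39406734 (plus), chr6:132814539-132814583 (plus), chr6:33272045-33272089 (plus), chr12:6535234-6535278 (plus) and chr2:84905626-84905670 (plus). The runs measured 7 bases in EEF1A1, 9 in RPLP0, 7 in RPSA, 10 in RPS12 and 9 in RPS18. A start with C followed by at least 4 further pyrimidines was present in 41 of 57 ribosomal protein genes that RefSeq lists with a single start (71.9%), against 497 of 10745 protein-coding genes (4.63%). By class it was present in 11.8% of the promoters of abundant genes, 4.33% of those of other expressed genes and 2.67% of those of genes not detected. The abundant class holds most ribosomal protein genes, so its share is not separate from their count. A match describes the reference sequence and is not evidence of which start these cells used.

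Among 20 listed translation and chaperone genes, 19 were expressed. HSP90AB1, a cytosolic chaperone, stood at 2063, 1836 and 2936 CPM and HSPA8, the constitutive HSP70, at 2836, 1777 and 2980.5 CPM. Both chaperones were lowest in replicate 2. The exception was EEF1G, an elongation factor subunit, with no count in any library. Its exonic bases are 99.9% shared with another gene, so this zero says nothing about its expression. EIF4A1, the helicase that unwinds mRNA leaders, was listed at only 12.9, 11.9 and 7.68 CPM, with 48.6% of its exonic bases shared. EEF1A2, a paralog of EEF1A1 known mainly from neurons and muscle, was abundant at 190.5, 229 and 225 CPM, or 107 CPM per kilobase against 2333 for EEF1A1.

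Markers of the mesenchymal state were high. Of 31 mesenchymal genes, 24 were expressed and 12 abundant, against 62.9% expressed among all nuclear protein-coding genes. VIM, the intermediate filament vimentin, stood at 1102, 1101 and 1523 CPM and FN1, fibronectin, at 1305, 898 and 806 CPM. LGALS1, galectin-1, reached 912, 926 and 846 CPM, and NT5E, the ectonucleotidase CD73, 617, 491 and 616 CPM. Vimentin was highest in replicate 3 and fibronectin in replicate 1, and galectin-1 differed by 1.09-fold at most. The transcription factors that drive the transition were not all present: SNAI2 stood at 48.6, 37.4 and 33.9 CPM, ZEB1 at 47.9, 65.8 and 63.8 CPM and SNAI1 at 9.23, 6.81 and 7.93 CPM, whereas TWIST1 had 2, 0 and 0 counts and TWIST2 0, 0 and 1. FOXC2, another inducer of the transition, had 3, 0 and 1 counts. N-cadherin, CDH2, often gained in the transition, was trace, with 10, 12 and 4 counts, while 2 other cadherins were expressed, CDH11 at 90.8, 105 and 67.9 CPM and CDH4 at 147, 105 and 172 CPM. The surface protein THY1 had 1, 22 and 3 counts and the peptidase MME 9, 15 and 15.

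Epithelial genes were a mixture. E-cadherin, CDH1, was trace in each library, at 4, 19 and 10 counts or 0.198, 0.851 and 0.499 CPM, and P-cadherin, CDH3, stood just above the threshold at 1.24, 1.79 and 1.15 CPM. Of 33 junction genes 23 were expressed (69.7%, near the 62.9% of all nuclear protein-coding genes), 2 of them abundant. DSG2, a desmosomal cadherin, stood at 368, 354 and 423 CPM and SPINT2, a protease inhibitor, at 143, 162 and 117 CPM. CLDN4, a tight junction protein, was at 60.8, 83.4 and 71.4 CPM, and CTNND1, the p120 catenin that binds cadherin tails, at 76.2, 119 and 119.8 CPM. EPCAM, the epithelial adhesion molecule, was stable at 18.5, 17.7 and 18.8 CPM. The splicing factors ESRP1 and ESRP2, which set epithelial exon choice, stood at 2.78, 5.28 and 1.94 CPM and 2.18, 1.84 and 0.947 CPM, the latter under the threshold in replicate 3. The epithelial transcription factors GRHL2, OVOL1 and OVOL2 were trace, with 6, 2 and 4, 0, 0 and 6 and 21, 19 and 28 counts. GRHL1, a factor of the same list, was expressed. ST14, RAB25, CRB3 and CLDN3 were trace. Replicate 1 was the lowest library for 17 of the 26 junction genes at a mean of 1 CPM or more, and for 5277 of 14419 genes overall.

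Hormone receptor RNA lay near the limit of detection. ESR1, the estrogen receptor, had 15, 11 and 7 counts (0.744, 0.493 and 0.349 CPM) and PGR, the progesterone receptor, 3, 9 and 0 counts. Both were trace. ERBB2 was expressed at 89.4, 93 and 95.3 CPM. The estrogen-responsive secreted protein TFF1 had 1, 0 and 0 counts and the mammary secretoglobin SCGB2A2 0, 0 and 0. Of 25 hormone receptor and luminal genes listed, 16 were expressed (64%, near the 62.9% of all nuclear protein-coding genes). Of the 25, 3 were abundant, 7 were trace and 2 were not detected. The luminal regulators GATA3 and FOXA1 were low but measurable, at 14.7, 13.3 and 12.6 CPM and 3.08, 1.61 and 3.39 CPM. ELF5, which drives the alveolar fate, was trace with 3, 5 and 4 counts. XBP1, a secretory pathway regulator, stood at 71.9, 74.1 and 65.5 CPM. An RNA level does not give the protein-based status by which tumours are classed as triple-negative.

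Of 31 keratins, 11 were expressed, 9 were trace and 11 were not detected, so 35.5% were expressed. The simple-epithelial KRT8 stood at 375, 445 and 449 CPM, its partner KRT18 at 213, 196 and 261 CPM and KRT19 at 136, 258 and 236 CPM. KRT7 was at 298, 264 and 184 CPM, the hair keratin KRT81 at 146, 122 and 80.6 CPM and KRT80 at 137, 213 and 174 CPM. The basal keratins KRT5 and KRT14 were trace, with 3, 9 and 22 and 6, 11 and 3 counts, as were KRT6A, KRT6B and KRT16. The epidermal KRT1, KRT2 and KRT9 and the intestinal KRT20 had no count, but KRT10, the partner of KRT1 in differentiating epidermis, was expressed at 85.1, 81.1 and 59.4 CPM. The basal keratins KRT17 and KRT15 were expressed, KRT17 at 17.6, 2.55 and 2.34 CPM, high in replicate 1 and low in the others, and KRT15 at 4.41, 6.22 and 4.19 CPM. KRT34, a hair keratin, was at 1.14, 2.55 and 2.04 CPM. KRT8, KRT18 and several other keratins have many pseudogenes, and KRT81 and KRT86 are near-identical, so reads may be split among them.

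Of 24 basal and myoepithelial genes, 15 were expressed (62.5%, near the 62.9% of all nuclear protein-coding genes). CD44, a hyaluronan receptor, was at 1376, 815 and 1109 CPM, CAV1, the caveolar coat protein, at 702, 679 and 822 CPM and SOX9, a progenitor transcription factor, at 143, 146 and 191 CPM. EGFR, often carried by basal tumours, was at 274, 224 and 310.2 CPM. TP63, the master regulator of the basal layer, was trace, its 7 counts all in replicate 2. The smooth-muscle proteins CNN1 and MYH11 were trace with 12, 13 and 6 and 38, 46 and 18 counts. CRYAB, a small heat-shock protein, had 1, 0 and 1 counts. SOX10, a regulator of basal-like and neural crest cells, had no count, but 100% of its exonic bases are shared with another gene.

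**Figure D2:**
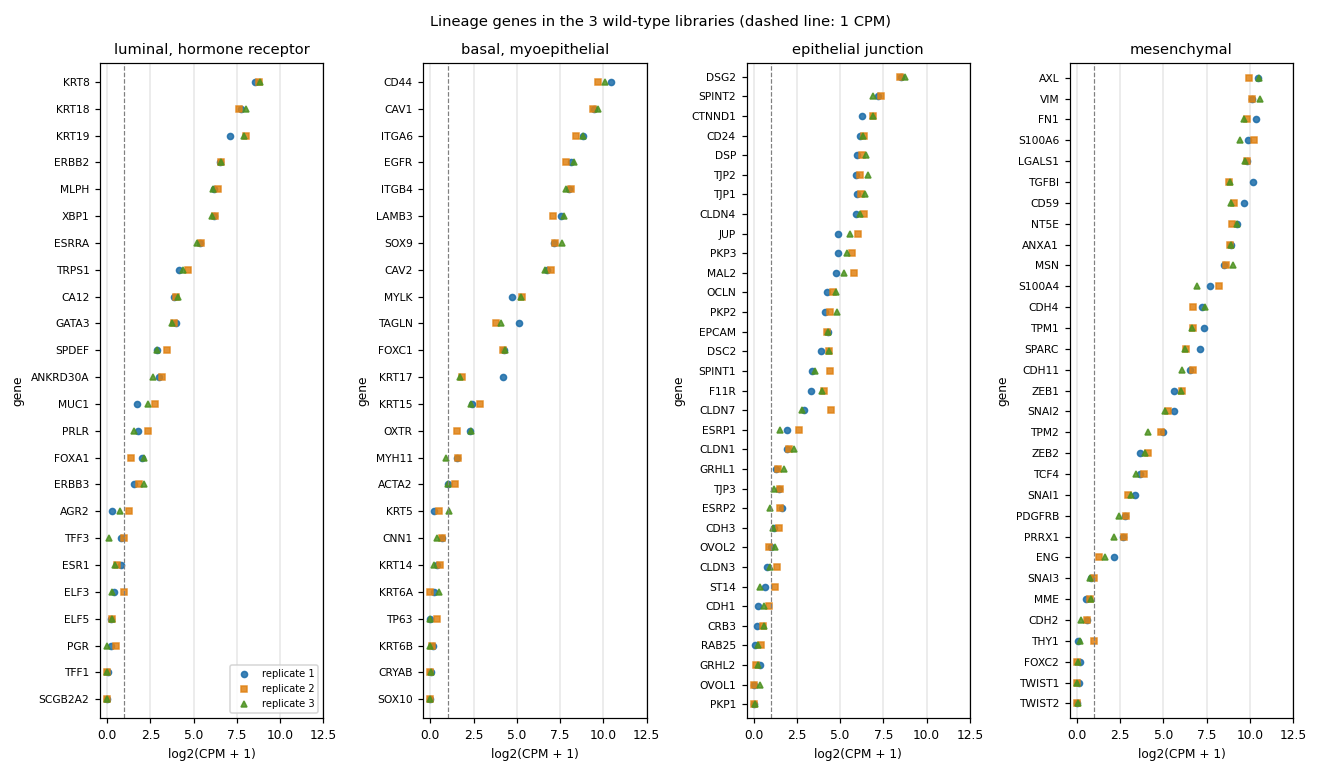
Level of the members of 4 lineage lists as log2(CPM + 1), with 1 point per wild-type replicate and a dashed line at 1 CPM. AXL, VIM and FN1 head the mesenchymal list, and CDH1, ESR1, PGR and TP63 lie left of the line in each library.

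Markers of blood cells, endothelium and other tissues, which the culture should not hold, were mostly at or near 0, with exceptions. Of 14 blood markers, 9 were not detected, 4 were trace and CD14 alone was expressed, at 1.29, 4.43 and 1.99 CPM. The pan-leukocyte PTPRC had 9, 8 and 3 counts, and CD3D, CD3E, MS4A1, HBA1 and HBB had none. The summed level of the blood markers was 2.38, 5.46 and 2.79 CPM. CD68 had 0, 0 and 2 counts, with 85.8% of its exonic bases shared. Of 11 endothelial markers, PECAM1 (2.23, 4.66 and 2.19 CPM) and PROX1 (2.73, 4.07 and 2.34 CPM) were expressed at low level, and CDH5, the endothelial cadherin, ERG, PLVAP and LYVE1 had no count. Of 12 fibroblast markers, 7 were expressed (58.3%, near the 62.9% of all nuclear protein-coding genes). They were led by PDPN, podoplanin, at 31.7, 27.9 and 24.6 CPM. FAP and PDGFRA were trace with 15, 7 and 14 and 9, 5 and 1 counts. The summed level of the 12 fibroblast markers was 119, 86 and 58.9 CPM. Among 18 markers of other tissues, MBP, myelin basic protein, stood out at 35.4, 62.3 and 50.5 CPM and GFAP, an astrocyte filament, followed at 5.11, 8.46 and 8.08 CPM. The MBP locus also makes transcripts outside the nervous system, which a gene-level count does not separate from myelin forms. ALB, MLANA, DES, CKM, PMEL and RBFOX3 were trace, and SFTPC, UMOD, TYR and TNNT2 had no count.

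Transcription factors of other lineages were mostly silent. Of 41 such factors, 24 were not detected, 7 were trace and 10 were expressed, against 62.9% expressed among all nuclear protein-coding genes. MYOD1 and MYOG of muscle, GATA1 and SPI1 of blood, CDX2 of intestine, PDX1 of pancreas, NEUROD1 of neurons, NANOG of pluripotent cells and PAX3 and PAX7 had no count. Those expressed were led by RUNX2, the bone regulator, at 77.7, 103 and 78.8 CPM and RUNX1 at 95.9, 94.6 and 112 CPM. PPARG, the adipocyte nuclear receptor, was at 40.4, 56.8 and 59.1 CPM. GATA6, an endoderm factor, was at 19, 21.9 and 18.8 CPM, NKX2-1, of lung and thyroid, at 9.33, 11.5 and 9.27 CPM, PAX8, of thyroid and kidney, at 15.4, 12.8 and 9.67 CPM, and MITF, of melanocytes, at 8.38, 14.4 and 16.8 CPM. The widest range between replicates among these named factors was 2-fold, for MITF. SOX2, a pluripotency factor, was expressed at 1.84, 2.69 and 1.55 CPM, whereas POU5F1, another, was trace with 22, 18 and 18 counts.

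Receptor tyrosine kinases were led by AXL, the receptor for GAS6 that is widely tied to invasive breast cancer lines, at 1398, 973 and 1470.4 CPM. Replicates 1 and 3 lay close together for AXL and replicate 2 was lower, a 1.51-fold range. EPHA2, an ephrin receptor, was at 315, 333 and 352 CPM, PTK7, a Wnt-pathway pseudokinase, at 244, 212 and 198 CPM, FGFR1 at 207, 199 and 182 CPM and MET, the receptor of hepatocyte growth factor, at 149, 146 and 218 CPM. In all, 33 of 56 receptor kinases were expressed (58.9%, near the 62.9% of all nuclear protein-coding genes). Of the 56, 6 were abundant, 15 trace and 8 not detected. KIT had 3, 14 and 4 counts, PDGFRA 9, 5 and 1, and RET and NTRK3 none. ERBB4 had 0, 3 and 0 counts and ALK 0, 5 and 0, all in replicate 2. Among the receptors for VEGFA, FLT1 had 0, 1 and 0 counts and KDR 42, 14 and 52, which was trace because replicate 2 lay under 1 CPM.

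Ligands for these receptors were present for some and missing for others. GAS6, the ligand of AXL, was at 173, 141 and 134 CPM. HBEGF, a ligand of EGFR, was at 104, 93 and 109 CPM. HGF, the ligand of MET, had no count in any library, under the cutoff of 0.048 CPM set for genes not detected. IGF1 had 2, 1 and 0 counts with 82.8% of its exonic bases shared, while its receptor IGF1R was expressed at 59.9, 62.8 and 60.4 CPM. FGF2 was trace with 1, 2 and 1 counts, and FGF10 had 0, 4 and 0. VEGFA, the angiogenic factor that low oxygen induces, stood at 503, 769 and 414 CPM, highest in replicate 2. The matricellular growth factors CYR61 and CTGF, targets of the YAP pathway, were the highest of the list per kilobase, at 729.7, 855 and 976 and 413, 366 and 605 CPM. Of 46 ligands, 35 were expressed (76.1%, against 62.9% of all nuclear protein-coding genes). TGFB1 was at 187, 177 and 152 CPM and BMP4 at 93.3, 178 and 116 CPM.

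Cytokine and TGF-beta family receptors were broadly expressed, 45 of 52 (86.5%, against 62.9% of all nuclear protein-coding genes). TGFBR2, which binds TGF-beta, was at 388, 535 and 503 CPM and TGFBR1, its signalling partner, at 97.3, 106 and 103 CPM. IL6ST, the shared subunit of the interleukin-6 family, was at 217, 199 and 200.2 CPM and OSMR, which pairs with it for oncostatin M, at 132, 207 and 200.1 CPM. TNFRSF12A, the receptor of TWEAK, was the highest of the list per kilobase, at 253, 223 and 192 CPM. A single chain of the GM-CSF receptor was expressed, CSF2RA at 14.8, 20.5 and 19.8 CPM. CSF2RB, the common beta chain that signals, had no count. CSF2, the ligand of this receptor, was expressed at 3.87, 21.9 and 8.72 CPM. IL2RA and the decoy receptor IL13RA2 had no count, and IL2RG had 4, 0 and 0 counts.

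The chemokine system was nearly silent: 6 of 41 genes were expressed, the smallest share among the receptor and ligand lists. CXCR4, the receptor that guides breast cancer cells in metastasis models, was the one classical chemokine receptor expressed, at 19, 13.4 and 16.3 CPM. Its ligand CXCL12 had no count in any library, under the cutoff of 0.048 CPM set for genes not detected. The other CXCL12 receptor, ACKR3, was trace with 22, 32 and 12 counts, as were CCR1 (18, 51 and 16) and CCR7 (4, 52 and 11). The neutrophil attractants CXCL8 and CXCL1 were at 25.3, 55.6 and 22.1 and 4.66, 10 and 5.13 CPM. For these, as for CCL28 (11.3, 18.4 and 11.7 CPM), replicate 2 was the highest. It was the highest library for 10 of the 12 chemokine-system genes at a mean of 1 CPM or more, against 5756 of 14419 genes overall. CCL2 had 2, 2 and 0 counts, CCL5 4, 0 and 1 and CXCL10 2, 5 and 3. CCR2 and CX3CR1 had none, and CXCR5 and CCR6 also had none but are shared at 88.6% and 71.2% of their exonic bases.

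G protein-coupled receptors were led per kilobase by FZD6, a Wnt receptor, at 274, 259 and 231 CPM, F2RL1, the protease-activated receptor 2, at 182, 121 and 148 CPM, and ADORA2B, an adenosine receptor, at 111, 103 and 104 CPM. Of 60 listed receptors 39 were expressed (65%, near the 62.9% of all nuclear protein-coding genes). SMO, the transducer of Hedgehog signals, had 1, 0 and 0 counts, and FZD9, FZD10 and ADRA2A had none. HTR7, a serotonin receptor, was expressed at 63.7, 62.1 and 63.2 CPM, within 1.02-fold over the 3 libraries.

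Of 48 nuclear receptors, 29 were expressed (60.4%, near the 62.9% of all nuclear protein-coding genes). Their levels were moderate, and none was abundant. RXRB, a retinoid X receptor and common dimer partner, stood at 110.3, 119.8 and 89.1 CPM, just under the abundant class in replicate 3. NR2F2, COUP-TFII, was at 98.8, 97.1 and 143 CPM. The glucocorticoid receptor NR3C1 was at 89.6, 105 and 127 CPM, in contrast to trace ESR1 and PGR. ESR2, the second estrogen receptor, was trace with 11, 21 and 17 counts. The xenobiotic and bile acid receptors NR1I2 and NR1H4 had no count. Replicate 2 was the highest library for 22 of the 30 nuclear receptors at a mean of 1 CPM or more, against 5756 of 14419 genes overall.

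Of 30 listed Notch pathway genes, 27 were expressed (90%, against 62.9% of all nuclear protein-coding genes). JAG1 (chr20:10637684-10674107, minus strand) stood at 251, 170.3 and 179 CPM, 23.5 ± 5.22 CPM per kilobase, higher in replicate 1 than in the other two. JAG2, the other Jagged ligand, was at 35.6, 35.3 and 32 CPM, or 5.36 CPM per kilobase. The Delta ligands were low: DLL1 at 5.85, 4.39 and 3.59 CPM, DLL4 trace with 12, 6 and 12 counts and DLL3 trace with 2, 0 and 2. Among receptors the order per kilobase was NOTCH2 (16.6 ± 1.79), NOTCH1 (4.68 ± 0.837), NOTCH3 (0.798 ± 0.171) and NOTCH4 (0.201 ± 0.0376), with no overlap between neighbouring receptors in the 3 libraries. NOTCH2 was at 248, 279 and 308 CPM. The 5 listed subunits of gamma-secretase, which cuts the activated receptor, were expressed, with APH1A at 121, 117 and 118 CPM and NCSTN at 118, 95.9 and 102 CPM. RBPJ, the DNA-binding partner of cleaved Notch, was at 182, 205 and 264 CPM. Of the target genes, HES1 was at 44.2, 42 and 40.5 CPM, HEY1 at 1.54, 1.88 and 1.55 CPM, HEYL at 1.59, 3.18 and 2.69 CPM and HEY2 was trace with 12, 6 and 5 counts.

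Of 26 integrin chains, 17 were expressed (65.4%) and 7 were abundant. ITGB1, the shared beta chain, stood at 1763, 1098 and 1445 CPM, 239 ± 55.4 CPM per kilobase, the highest of the list. Its laminin-binding partners followed, ITGA3 at 915, 815 and 751 CPM and ITGA6 at 447, 342 and 448 CPM. The hemidesmosomal ITGB4 was at 258, 283 and 230.2 CPM, the collagen-binding ITGA2 at 206, 183 and 214 CPM, the fibronectin-binding ITGA5 at 159, 128 and 126 CPM and ITGAV at 285, 202 and 209 CPM. The leukocyte chains ITGAL and ITGAM had 0, 0 and 0 and 0, 0 and 1 counts, although their beta chain ITGB2 was expressed at 12, 12.1 and 14.5 CPM. ITGA4, which binds VCAM1, was trace with 7, 2 and 3 counts, and ITGB6 was trace with 19, 24 and 18. ITGA8, which binds fibronectin as ITGA5 does, had 0, 0 and 2. Other collagen-binding chains were lower than ITGA2, with ITGA1 at 20.9, 42.5 and 20.8 CPM, ITGA10 at 10.1, 20.8 and 7.83 CPM and ITGA11 trace with 3, 8 and 8 counts.

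Of 44 collagen chains, 24 were expressed, 13 were trace and 7 were not detected. The shares of 54.5% expressed and 15.9% not detected compare with 62.9% and 21.7% of all nuclear protein-coding genes. The 3 chains of the microfibrillar collagen VI were high, COL6A1 at 392, 388 and 302 CPM, COL6A2 at 233, 194 and 159 CPM and COL6A3 at 302, 133 and 146 CPM. COL7A1, the anchoring fibril chain, was at 573, 264 and 181 CPM and the transmembrane COL13A1 at 122, 145 and 147 CPM. Basement membrane COL4A2 was at 261, 102 and 132 CPM and its neighbour COL4A1 at 94.1, 28.9 and 41.6 CPM. Collagen I, a trimer of alpha-1 and alpha-2 chains, was unbalanced: COL1A1 stood at 36.4, 24.8 and 17.5 CPM and COL1A2 was trace, at 1.44, 0.358 and 0.349 CPM. Collagen V was unbalanced in the same way, with COL5A1 at 326, 219 and 178 CPM against 2.23, 1.21 and 1.99 CPM for COL5A2 and no count for COL5A3. The cartilage chains COL2A1 and COL9A1 had 0, 0 and 0 and 0, 1 and 0 counts. In COL7A1, COL6A3, COL4A1, COL4A2, COL5A1 and COL1A1 replicate 1 was the highest library.

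Laminin chains were mostly expressed, 10 of 12 (83.3%, against 62.9% of all nuclear protein-coding genes). Of the chains of epithelial adhesion laminin, LAMB3 was at 186, 136 and 213 CPM and LAMA3 at 41.7, 67.8 and 43 CPM. LAMA3 was lower per kilobase (3.76 ± 1.09) than LAMB3 (38.1 ± 8.33). LAMB1 was at 355, 305 and 368 CPM and LAMC1 at 166, 169.9 and 187 CPM. LAMB4 and LAMC3 were trace. NID1, nidogen, which links laminin to collagen IV, was trace with 1, 1 and 3 counts.

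**Figure D3:**
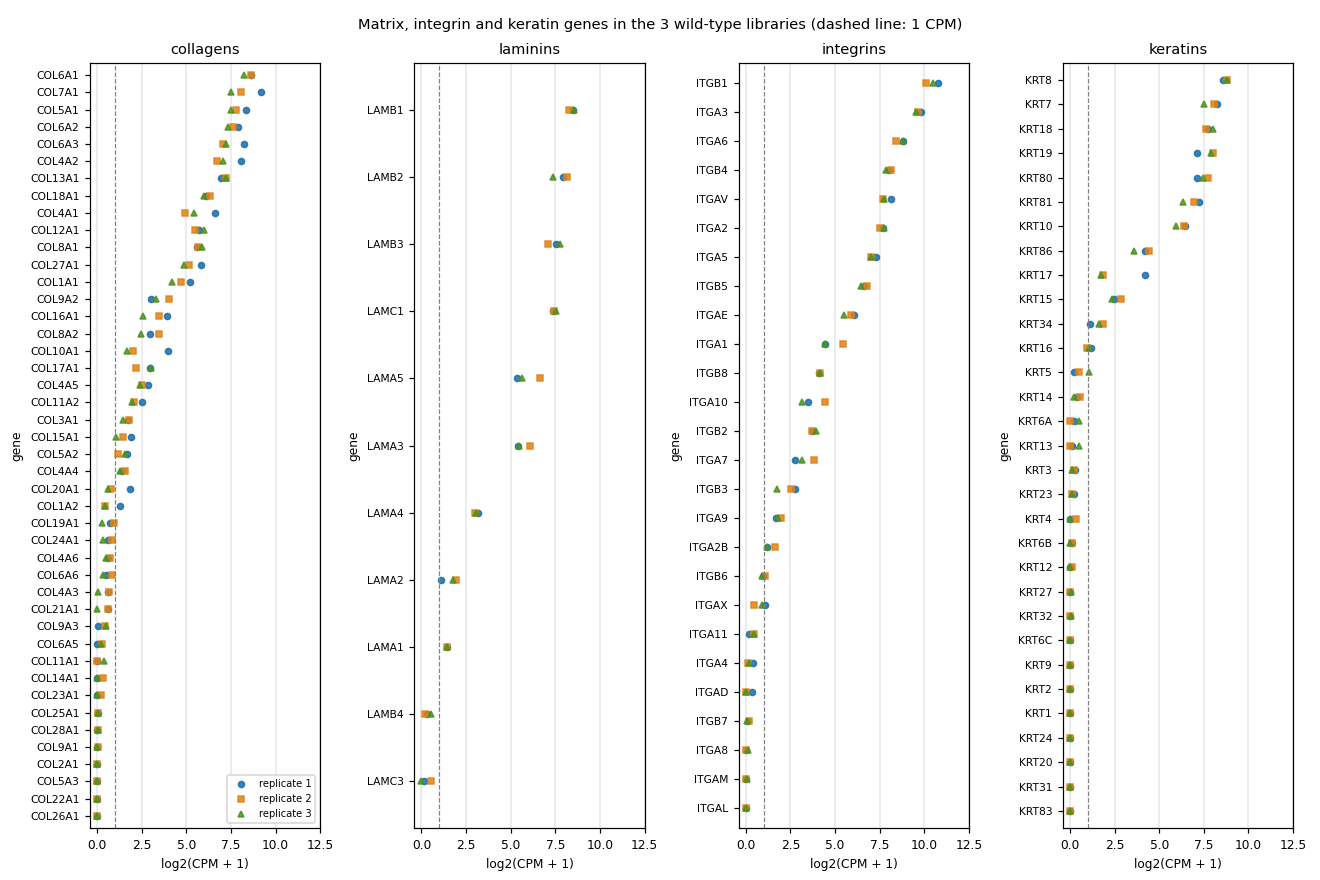
Level of the listed collagen, laminin, integrin and keratin genes as log2(CPM + 1), with 1 point per wild-type replicate and a dashed line at 1 CPM. COL7A1, COL4A1, COL4A2 and KRT17 are shifted to the right in replicate 1, while ITGAL, COL2A1 and KRT20 lie at 0 in all 3.

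Of 68 matrix glycoprotein and modifying genes 47 were expressed (69.1%, against 62.9% of all nuclear protein-coding genes) and 20 were abundant. THBS1, thrombospondin-1 (chr15:39581079-39599466, plus strand), an adhesive protein that also activates TGF-beta, was the 11th most read gene of all, at 4091, 1811 and 2755 CPM. Its libraries spanned 2.26-fold, with replicate 1 the highest and replicate 2 the lowest. TGFBI, a TGF-beta-induced matrix protein, was at 1168, 437 and 455 CPM, with replicate 1 apart from the other two. SRGN, a proteoglycan core, was at 232, 226 and 260.3 CPM and SDC4, a syndecan, at 172, 171 and 180.2 CPM. Small leucine-rich proteoglycans of connective tissue were trace or not detected, with BGN at 3, 0 and 0 counts, DCN at 27, 21 and 2 and FMOD at 0, 0 and 1, except LUM, lumican, which was expressed at 17.8, 17.6 and 6.28 CPM. ELN, elastin, had 2, 0 and 0 counts, and the cartilage and brain cores ACAN and NCAN had none. POSTN, periostin, was at 19.8, 2.51 and 1.5 CPM, mostly in replicate 1.

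Proteases and their inhibitors were widely expressed, 40 of 48 (83.3%, against 62.9% of all nuclear protein-coding genes). PLAU, urokinase, stood at 596, 346 and 348 CPM. MMP14, the membrane-bound collagenase, was at 566, 488 and 471 CPM, and the metalloprotease inhibitors TIMP1, TIMP2 and TIMP3 were at 279, 173 and 184 CPM, 322, 355 and 335 CPM and 424, 706 and 457 CPM. TIMP1 was highest in replicate 1 and TIMP3 in replicate 2. MMP2, the gelatinase that MMP14 activates, was trace with 5, 10 and 1 counts, and MMP1 was low at 5.16, 2.91 and 3.64 CPM. MMP7 and MMP12 were not detected, at 0, 1 and 0 and 0, 0 and 3 counts. CTSD, cathepsin D, was listed at 143, 154 and 136 CPM, with 52.7% of its exonic bases shared.

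Every one of 30 proliferation genes was expressed and 24 were abundant. TOP2A, which untangles replicated DNA, stood at 604, 621 and 766 CPM and CDK1, the mitotic kinase, at 564, 439 and 401 CPM. PCNA, the replication clamp, stood at 404, 330.0 and 313 CPM and UBE2C, a mitotic ubiquitin-conjugating enzyme, at 292, 231 and 249.8 CPM. The median SD of log2(CPM + 1) of the 30 genes was 0.19, against 0.20 over all genes at a mean of 1 CPM or more.

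Glycolytic enzymes ranked among the most abundant nuclear mRNAs, 25 of 27 being expressed and together taking up 1.72% of the counts. GAPDH stood at 2221, 2379 and 2691 CPM, ENO1, enolase, at 1961, 2449.6 and 2653 CPM, LDHA, which makes lactate, at 2558, 2598 and 2877 CPM and PKM, pyruvate kinase, at 2361, 2714 and 2846 CPM. All 4 were lowest in replicate 1 and highest in replicate 3. The lactate transporters were unequal. SLC16A3, the exporter MCT4, was at 464, 573 and 447 CPM (55 CPM per kilobase), and SLC16A1, MCT1, was at 1.54, 1.84 and 1.55 CPM (0.309 CPM per kilobase).

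All 20 genes of iron and redox balance were expressed. FTL led, at 1217, 1234 and 1492 CPM. Its partner FTH1 was listed at 465, 547 and 504 CPM, with 62.4% of its exonic bases shared, so their ratio cannot be read. MT2A, a metallothionein, was at 534, 563 and 658 CPM, and TFRC, the transferrin receptor that imports iron, at 775, 428 and 833 CPM, lowest in replicate 2. GPX1, a glutathione peroxidase, was at 709, 587 and 533 CPM.

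Antigen presentation genes were expressed, 24 of 25. B2M, the light chain of class I molecules, was at 1125, 1354 and 816 CPM, and the heavy chains HLA-B and HLA-C were at 574, 458 and 400.2 CPM and 332, 302 and 246 CPM. Counts of HLA genes depend on how closely the line's alleles match the reference, which was not tested. The class II chain HLA-DRA, usually a mark of antigen-presenting cells, was at 86.6, 65.5 and 44.9 CPM and its master regulator CIITA at 5.9, 11.4 and 9.37 CPM. HLA-DQA1 had 0, 3 and 0 counts. None of the 24 genes was highest in replicate 3, which was the highest library for 4313 of 14419 genes overall.

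Of 40 oncogenes and tumour suppressors 36 were expressed, with a median spread of 0.16 on the log2 scale. CCND1, cyclin D1, led per kilobase at 313, 328 and 406 CPM, followed by NRAS at 293, 262 and 285 CPM, MYC at 139, 147 and 189 CPM and HRAS at 89.1, 85.7 and 88.2 CPM. BRAF was at 23.1, 30.6 and 31.1 CPM and RB1 at 77.8, 89.5 and 109.7 CPM. BRCA1 and BRCA2 stood at 36.8, 36.4 and 41.4 and 24.1, 37.3 and 28.2 CPM. The exceptions were MYCN, trace with 10, 21 and 13 counts, and 3 genes that lie together on chromosome 9: CDKN2A, the source of p16, with 3, 0 and 5 counts, CDKN2B, of p15, with 0, 0 and 3, and MTAP, a methionine salvage enzyme, with 1, 1 and 4. Along that arm, FOCAD (2.58, 1.93 and 1.84 CPM) and TUSC1 (18.2, 16.3 and 12.6 CPM) are the nearest expressed genes on either side. They were taken as bounds after the counts were seen, so no gene between them could be an expressed one. Between them 62 of 69 listed genes had no count, and 28538 of all 56505 genes had none. Because the stretch was picked for its low counts, setting these shares side by side is not a test. Of the 69, 24 are protein-coding, 18 of these had no count, and 16 of the 24 are interferon genes, which cells express mainly when stimulated.

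Among 13 noncoding RNAs, from a list drawn up for abundant ones, 9 were expressed (69.2%). Of all 2163 lincRNAs, 157 were expressed. NEAT1 was at 223, 298 and 119.8 CPM and MALAT1 at 40.4, 71 and 32.2 CPM, both nuclear transcripts and both lowest in replicate 3. SNHG1, a snoRNA host, was at 239.7, 178 and 155 CPM and GAS5, another, at 176, 200.2 and 124 CPM. HOTAIR was low, at 1.64, 2.78 and 1.3 CPM, and H19 was trace with 2, 6 and 0 counts. RN7SK had no count, with 100% of its bases shared. All 9 of these genes at a mean of 1 CPM or more were lowest in replicate 3, the lowest library for 5423 of 14419 genes overall.

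Promoter sequence differed by detection class. Among 10745 protein-coding genes with a single RefSeq start, the 300 bases from 250 before to 50 after the start held a median of 29 CpG dinucleotides in abundant genes, 27 in other expressed genes, 11 in trace genes and 5 in genes not detected. The TATAAA hexamer, searched on the sense strand between 40 and 20 bases upstream of the start, occurred in 3.02%, 1.55%, 5.55% and 10.0% of these classes, and in 4.23% of all. It occurred in 5 of 10 iron and redox genes, 6 of 14 keratins, 7 of 25 growth factor ligands and 7 of 30 actin, annexin and S100 genes with a single start. These lists are small, and the counts describe the reference sequence. CXCL12 went against the class medians: it had no count and 39 CpG dinucleotides in its 300 bases, more than THBS1 with 29 or JAG1 with 24. The 3 sequences are shown from 250 bases before to 15 after the RefSeq start (GRCh38.p14), 5′ to 3′ on the gene's strand, with CpG dinucleotides in capitals, because they pair the ligand the series is about and its most read matrix gene with a CpG-dense gene that had no count. 
JAG1: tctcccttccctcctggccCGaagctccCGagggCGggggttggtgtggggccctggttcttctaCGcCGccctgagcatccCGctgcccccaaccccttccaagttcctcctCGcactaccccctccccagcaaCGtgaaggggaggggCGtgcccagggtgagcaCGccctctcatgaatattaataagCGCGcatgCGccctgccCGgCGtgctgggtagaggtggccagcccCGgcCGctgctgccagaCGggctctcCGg
THBS1: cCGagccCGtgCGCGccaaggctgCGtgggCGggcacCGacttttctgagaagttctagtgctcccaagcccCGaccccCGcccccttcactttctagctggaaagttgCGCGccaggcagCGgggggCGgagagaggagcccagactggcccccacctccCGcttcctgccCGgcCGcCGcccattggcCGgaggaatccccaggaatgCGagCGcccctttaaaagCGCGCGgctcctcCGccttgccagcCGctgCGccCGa
CXCL12: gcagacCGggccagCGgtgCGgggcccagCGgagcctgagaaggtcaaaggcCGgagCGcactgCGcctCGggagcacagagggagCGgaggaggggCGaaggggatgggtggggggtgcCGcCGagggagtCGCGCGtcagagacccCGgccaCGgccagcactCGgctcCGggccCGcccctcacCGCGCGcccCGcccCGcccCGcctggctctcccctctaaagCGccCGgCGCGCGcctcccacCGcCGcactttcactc
They lie at chr20:10673985-10674249 (minus strand), chr15:39580829-39581093 (plus) and chr10:44385083-44385347 (minus). The printed stretches hold 19, 27 and 33 CpG dinucleotides. DNA methylation was not measured in these files.

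The 3 replicates were close to one another. Over genes at a mean of 1 CPM or more, log2(CPM + 1) values of any 2 libraries had a Pearson r of 0.983 to 0.985 across genes, which are not independent replicates. The median SD of log2(CPM + 1) was 0.20, and 0.18 over the 9850 genes at a mean of 10 CPM or more. The median coefficient of variation was 26.3% for genes from 1 to 10 CPM, 13.1% from 10 to 100 CPM, 11.7% from 100 to 1000 CPM and 13.3% above 1000 CPM. Counting error alone would give medians of 12.3%, 3.69%, 1.69% and 0.567%, and the observed medians lay above these in each band. Fitted with edgeR, the common biological coefficient of variation was 18.8%. Of the 9850 genes, 281 (2.85%) differed by more than 2-fold between their highest and lowest library.

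**Figure D4:**
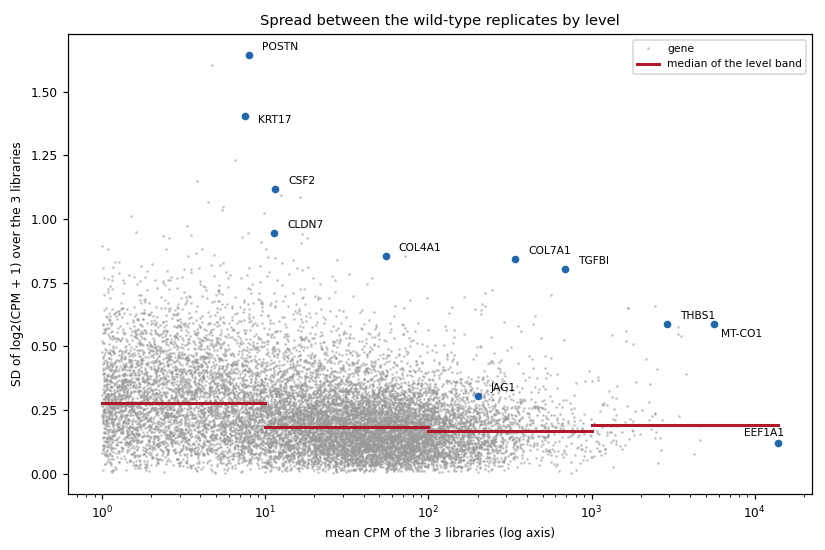
SD of log2(CPM + 1) over the 3 wild-type replicates against mean CPM (log axis) for each gene at a mean of 1 CPM or more (grey points), with the median of each level band as a red line and 11 named genes in blue. POSTN, KRT17, CSF2 and CLDN7 are far above the band medians at low level, and COL7A1, TGFBI, THBS1 and MT-CO1 at high level.

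The genes of largest spread at a mean of 10 CPM or more were led by CSF2, the cytokine GM-CSF, at 3.87, 21.9 and 8.72 CPM (SD 1.12 on the log2 scale), a 5.65-fold range with replicate 2 the highest. SCG5, a secretory granule chaperone, was at 22.9, 10.3 and 4.24 CPM and ADAMTS14, a procollagen protease, at 12.4, 30.5 and 6.03 CPM. CLDN7, a tight junction protein, was at 6.7, 21.5 and 5.88 CPM, and TNFSF10, the death ligand TRAIL, at 11.6, 30.5 and 7.93 CPM. NOX5, an oxidase, was at 9.57, 33.3 and 11.3 CPM, and RGCC, VWA5A, RAB37 and PRSS2 were likewise highest in replicate 2. COL4A1 was the one collagen among these 12, and it was highest in replicate 1. Of the 281 genes over 2-fold, replicate 2 was the highest library for 204, replicate 1 for 69 and replicate 3 for 8. Among all 9850 genes the highest library was replicate 1 for 2979, replicate 2 for 3434 and replicate 3 for 3437.

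At the other end, EAF1, an elongation cofactor, was at 26.2, 26.1 and 26.2 CPM and COX7C, a respiratory chain subunit, at 201, 201 and 199.7 CPM. PEX16, CCNH, TRUB1, SNRPD3 and RAB11A were also among the 8 genes of smallest spread, each with a range of 1.01-fold. These values are smaller than counting error for genes of this level, and the 8 were picked from 9850 as the smallest.

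Mitochondrial RNA set the replicates apart most clearly. The 13 mitochondrially encoded mRNAs took up 2.52%, 3.67% and 1.66% of the counts in replicates 1, 2 and 3 (95% Wilson intervals 2.52% to 2.53%, 3.66% to 3.68% and 1.65% to 1.66%). All 13 were highest in replicate 2 and lowest in replicate 3. MT-CO1, a cytochrome oxidase subunit, ran 5458, 7969.6 and 3534 CPM, and MT-ND4, a complex I subunit, 3475, 4532 and 2145 CPM. The mitochondrial rRNAs MT-RNR1 and MT-RNR2 had the same order, at 244, 431 and 236 CPM and 1493, 2259 and 1101 CPM.

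Collagen genes were shifted toward replicate 1, the highest library for 16 of 25 at a mean of 1 CPM or more, with a median deviation of 0.27 from the 3-library mean of log2(CPM + 1), against -0.07 in replicate 2 and -0.24 in replicate 3. Ribosomal protein genes were also highest in replicate 1, 58 of 83, with a smaller median deviation of 0.11. Over all 14419 genes replicate 1 was the highest library for 4350, with a median deviation of -0.02. Gene length moved with the replicate too. When the 9850 genes were ranked by exonic length, the 1970 longest had a median deviation of -0.10 in replicate 1 and the 1972 shortest 0.06. Exonic length is 11071 bases for COL7A1 and 8188 for COL4A1. The part of gene length, culture, RNA quality or library preparation in these shifts was not tested.

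**Figure D5:**
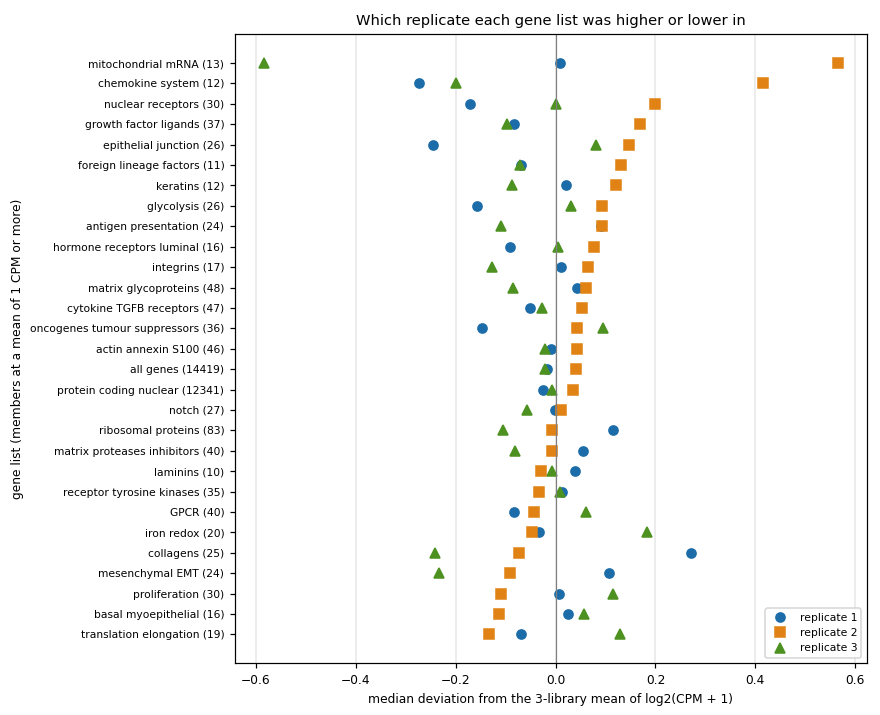
Median deviation of each gene list from the 3-library mean of log2(CPM + 1), with 1 point per wild-type replicate and the number of genes at a mean of 1 CPM or more in brackets, for lists with at least 10 such genes. Mitochondrial mRNA spans the widest range, with replicate 2 at 0.57 and replicate 3 at -0.58, and collagens run from replicate 1 at 0.27 to replicate 3 at -0.24.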

How the data were processed

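Total RNA, purified on RNeasy columns, was sequenced commercially as 150-base paired ends, with 20000000 read pairs planned per library, per the labels' protocols. The authors deposited raw read counts per gene symbol, with coordinates and merged exonic length. STAR, featureCounts, Subread, DESeq2 and GRCh38 are named in the submitters' processing notes without roles, and they give no annotation release or strand setting. That reads in shared exons went largely uncounted was read from the counts. The wild-type columns were identical in the 2 deposited tables and used once.

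From the deposited counts, CPM (counts over the library's counted reads), CPM per kilobase and SD of log2(CPM + 1) with a pseudocount of 1 were computed with Python 3.11.15. The dispersion of an intercept-only fit (TMM factors 0.994, 1.03 and 0.977) came from edgeR 4.0.16 under R 4.3.3. The fit was also run on simulated counts with some genes raised in a single library. There it gave a biological coefficient of variation above the value set. There is 1 group, so no test between groups was made. At library totals of 20058253 to 22334156 counts, 1 read is worth 0.0448 to 0.0499 CPM. Chi-square per gene between any 2 libraries was 33.7 to 39.4, above the value of 1 that sampling noise gives, so no library was a copy of another. Gene types came from GENCODE 29 by symbol (66.1% of symbols matched), and 958 distinct list genes were looked up, 6 through an older symbol (CYR61 and CTGF among them) and 1 without a match. Promoters came from RefSeq, GRCh38.p14, and 3846 protein-coding symbols with several starts were left out. CDH1, EPCAM, TWIST1, COL1A1 and COL1A2 had no promoter entry.

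Named genes are JAG1, the 25 leading genes by CPM and by CPM per kilobase, up to 8 leading members of each list and any trace or undetected member, the oncogene and tumour suppressor list, and the 12 most and 8 least variable protein-coding genes at a mean of 10 CPM or more. EIF4A1, EEF1A2, SNAI2, ZEB1, SNAI1, CDH11, CDH4, CDH3, EPCAM, ESRP1, GRHL1, FOXA1, KRT17, IGF1R, TGFBR1, CSF2RA, NR3C1, JAG2, DLL1, NOTCH1, NOTCH3, NOTCH4, HEY1, HEYL, ITGB2, COL5A2, MMP1, CTSD, SLC16A3, SLC16A1, TFRC, CIITA, FOCAD, TUSC1, HOTAIR, ITGA1, ITGA10, KRT15, KRT34 and SOX2 were named outside this rule, after their values were seen. The members and lists were chosen with earlier results of these data known. Some genes that the rule names are not reported here.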

Additional observations from a re-analysis of the deposited data

How the results depend on the processing

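The count of expressed genes was 13557 with TMM factors, 14777 at a threshold of 0.5 CPM, 10810 at 5 CPM, 11637 at 1 CPM per kilobase and 13648 to 13962 with 1 replicate left out, against 13530. Genes without any count numbered 28538, against 33064 at 3 counts or fewer, and 30204 of the latter remained when genes sharing 50% or more of their exonic bases were set aside, an alternative chosen after seeing the data. Of the 1042 listed genes, 729 were expressed; a threshold of 5 CPM removed 114 and one of 0.5 CPM added 34. The mitochondrial share was 2.09% to 3.10% with 1 replicate left out, against 2.62%. The median SD of log2(CPM + 1) was 0.20 and fell to 0.0 with no filter on low values, because most listed genes have no count. Pseudocount 0.1 gave 0.22, and leaving out 1 replicate gave 0.16 to 0.17. The edgeR biological coefficient of variation was 18.47% to 18.98% with 1 replicate left out and 21.9% with no filter on low counts. Ranking by TPM shared 13 of 25 leading genes with CPM, and CPM per kilobase of the median GENCODE transcript length shared 18. Depth limits what can be said under 0.048 CPM. No paired analysis was possible because only the wild-type group was analysed.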
